A study of Mus musculus with 15 samples.

Results

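Imprinted genes are described here: 35 mouse genes that are expressed mainly from the allele of the mother or of the father. For at least 7 of them, Grb10, Ddc, Ube3a, Gnas, Dcn, Calcr and Ppp1r9a, this holds only in some tissues or for some transcripts, and the others need not be imprinted in every tissue. The 35 genes were chosen by name, as the rows of the count table that carry the symbol of a listed gene, and were found on 36 of 23589 named loci. Calcr, the calcitonin receptor, lay on 2 rows and is represented by the row on its own strand, which held most of its counts, while the antisense row was left out. Male C57BL/6 mice had been sampled by RNA-Seq in 2 brain regions, hypothalamus and hippocampus, and in liver, epididymal white adipose tissue (fat) and the mucosa of the intestine, labelled colon. The mice were fed ad libitum (AL, killed at 5 months of age), fed 60% of the AL amount from 4 months of age (dietary restriction, DR, killed at 5 months), or fed DR and then returned to AL food for 2 months (DR-AL, killed at 7 months). RNA of 5 mice was pooled into 1 library for each combination of tissue and diet, which gave 15 libraries in which the tissues share their animals. In DR-AL diet and age cannot be told apart. All groups were male, inbred and wild type, and reads of the alleles of the mother and the father were counted together, so the values are total transcript levels and not the imprint itself.

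In genomic imprinting, DNA methylation laid down in the egg or the sperm marks a control region, and the genes around it are then read from a single parental allele. The genes lie in domains in which coding genes and long noncoding RNAs sit side by side. They are best known for growth of the fetus and placenta, for the hypothalamus and feeding, and for the expansion of adipose tissue. Paternally expressed members such as Peg3, Mest, Igf2 and Dlk1 and maternally expressed members such as H19, Grb10 in most tissues, Cdkn1c and Phlda2 are often described as acting on growth in opposite directions.

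Promoters are shown for the 4 members that were lowest in the DR fat library relative to AL, Peg3, Zim1, Mest and Nnat, and for Usp29, which starts beside Peg3. Each line gives the 250 bases before the start of the RefSeq transcript (GRCm38.p6), 5′ to 3′ on the strand of the gene, with CG dinucleotides, the sites of DNA methylation, in capitals.
Peg3 (chr7:6730420-6730669, minus strand, 8 CG): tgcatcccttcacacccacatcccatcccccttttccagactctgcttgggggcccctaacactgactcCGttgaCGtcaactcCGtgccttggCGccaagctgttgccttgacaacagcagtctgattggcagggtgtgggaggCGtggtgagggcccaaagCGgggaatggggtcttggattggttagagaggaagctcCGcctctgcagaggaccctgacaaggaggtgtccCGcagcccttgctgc
Usp29 (chr7:6730333-6730582, plus strand, 14 CG): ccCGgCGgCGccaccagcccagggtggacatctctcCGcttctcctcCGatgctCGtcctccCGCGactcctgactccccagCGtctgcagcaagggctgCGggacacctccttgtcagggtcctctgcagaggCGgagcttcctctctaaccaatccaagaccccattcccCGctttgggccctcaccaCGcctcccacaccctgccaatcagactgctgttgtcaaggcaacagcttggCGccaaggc
Zim1 (chr7:6696433-6696682, minus strand, 14 CG): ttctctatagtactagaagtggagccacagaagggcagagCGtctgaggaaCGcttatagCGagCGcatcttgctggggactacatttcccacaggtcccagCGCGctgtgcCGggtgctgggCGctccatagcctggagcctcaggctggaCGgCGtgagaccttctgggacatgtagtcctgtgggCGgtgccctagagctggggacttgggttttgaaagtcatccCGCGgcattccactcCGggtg
Mest (chr6:30737800-30738049, plus strand, 14 CG): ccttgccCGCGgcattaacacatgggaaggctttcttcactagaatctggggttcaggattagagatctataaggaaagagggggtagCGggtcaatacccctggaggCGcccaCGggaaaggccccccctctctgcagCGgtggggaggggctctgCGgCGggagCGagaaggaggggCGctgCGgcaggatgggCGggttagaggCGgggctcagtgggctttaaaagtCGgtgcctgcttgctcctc
Nnat (chr2:157559828-157560077, plus strand, 12 CG): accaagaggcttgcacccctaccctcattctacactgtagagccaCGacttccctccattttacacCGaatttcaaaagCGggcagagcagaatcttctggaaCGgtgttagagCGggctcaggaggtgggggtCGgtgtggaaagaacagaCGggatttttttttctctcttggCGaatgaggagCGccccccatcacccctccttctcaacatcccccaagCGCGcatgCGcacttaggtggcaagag
The Peg3 and Usp29 windows lie head to head on opposite strands of chromosome 7 and share 163 bases, so the same stretch stands before a gene that was 12.6-fold lower in the DR fat library and a gene that was nearly silent in fat. RefSeq windows of 300 bases (250 before and 50 after the start) were found for 28 of the 35 members, 46 windows in all. The median number of CG dinucleotides in the 250 bases was 10 over these windows and 6 over all 32851 windows of the table. The 6 letters TGCCGC, which the imprint-protecting factor Zfp57 is known to bind when methylated, were found on either strand in 26.1% of the members' windows and in 11.6% of all windows. The matches fell in windows of 11 members, Zim1, Mest, Nnat, Plagl1, Grb10, Calcr, Zdbf2, Copg2, Igf2, Meg3 and Snrpn, and describe letters, not binding.

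In the GENCODE annotation of GRCm38, Peg3 (chr7:6703892-6730431), Usp29 (chr7:6730578-6967219) and Zim1 (chr7:6671269-6696450) lie together near the start of chromosome 7. The domain of the noncoding RNA H19 (chr7:142575529-142578143) and the growth factor Igf2 (chr7:142650766-142666816) lies at the other end of that chromosome, next to Kcnq1 (chr7:143106362-143427042), Cdkn1c (chr7:143458339-143461050), Slc22a18 (chr7:143473736-143499334) and Phlda2 (chr7:143501545-143503150). Between them lie Snrpn (chr7:59982495-60140219), Ube3a (chr7:59228750-59311536), Ndn (chr7:62346569-62350262), Magel2 (chr7:62377010-62381640), Mkrn3 and Peg12. Chromosome 12 carries Dlk1 (chr12:109452823-109463336), Meg3 (chr12:109541001-109571726), Rian (chr12:109603940-109661716) and Mirg (chr12:109729764-109749460), in this order. Chromosome 6 carries Calcr (chr6:3685680-3764714), Sgce (chr6:4674350-4747207), Peg10 (chr6:4747306-4760517), Ppp1r9a, Asb4 (chr6:5383386-5433022), Mest (chr6:30723547-30748465) and Copg2 (chr6:30747554-30896794). The other members are spread over further chromosomes, such as Nnat (chr2:157560078-157562522), Gnas (chr2:174284320-174346744), Grb10 (chr11:11930508-12038683), Plagl1 (chr10:13060504-13131694) and Zdbf2 (chr1:63273265-63314576). The counted loci of Meg3, Rian, Mirg and Snrpn also carry the names of small RNAs or coding genes inside them, so their counts cannot be split.

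The libraries held 21767088 to 40500130 counts at named loci (median 26554699). Values below are CPM, the counts of a locus scaled to a total of 1000000 counts at named loci. The labelled tissues carried their own markers: 8 liver genes summed to 45748 to 53243 CPM in liver, 8 colon epithelium genes to 35246 to 35621 CPM in colon, 8 adipocyte genes to 28102 to 41248 CPM in fat, and 8 hypothalamic neuron genes to 866 to 1036 CPM in hypothalamus against 3.20 to 5.96 CPM in hippocampus. The fat libraries stood apart from each other. Liver genes summed to 5226, 57.5 and 11.4 CPM in the AL, DR and DR-AL fat libraries, testis germ cell genes to 5.53, 613 and 3084 CPM and epididymis genes to 909, 3239.6 and 5150.2 CPM. The 3 AL, DR and DR-AL values of a gene are given in this order throughout.

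Transcripts of the 35 members made up 1.62 to 1.68% of all counts in the 3 hypothalamus libraries, against 0.497 to 0.552% in hippocampus, 0.370 to 0.549% in fat, 0.108 to 0.114% in colon and 0.0950 to 0.111% in liver. Gnas alone, imprinted only in part, held 39.88 to 56.25% of the members' CPM in liver, 49.36 to 52.73% in colon and at most 28.29% in any other library. Of the 35 members, 17 had their highest mean CPM in hypothalamus, 7 in fat, 5 in colon, 5 in hippocampus and 1, H19, in liver. For 26 members, the lowest library of the highest tissue lay above every library of the other 4 tissues. These were 16 of the 17 hypothalamus members, 5 of 7 in fat, 3 of 5 in hippocampus, 2 of 5 in colon and not H19.

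**Figure D1:**
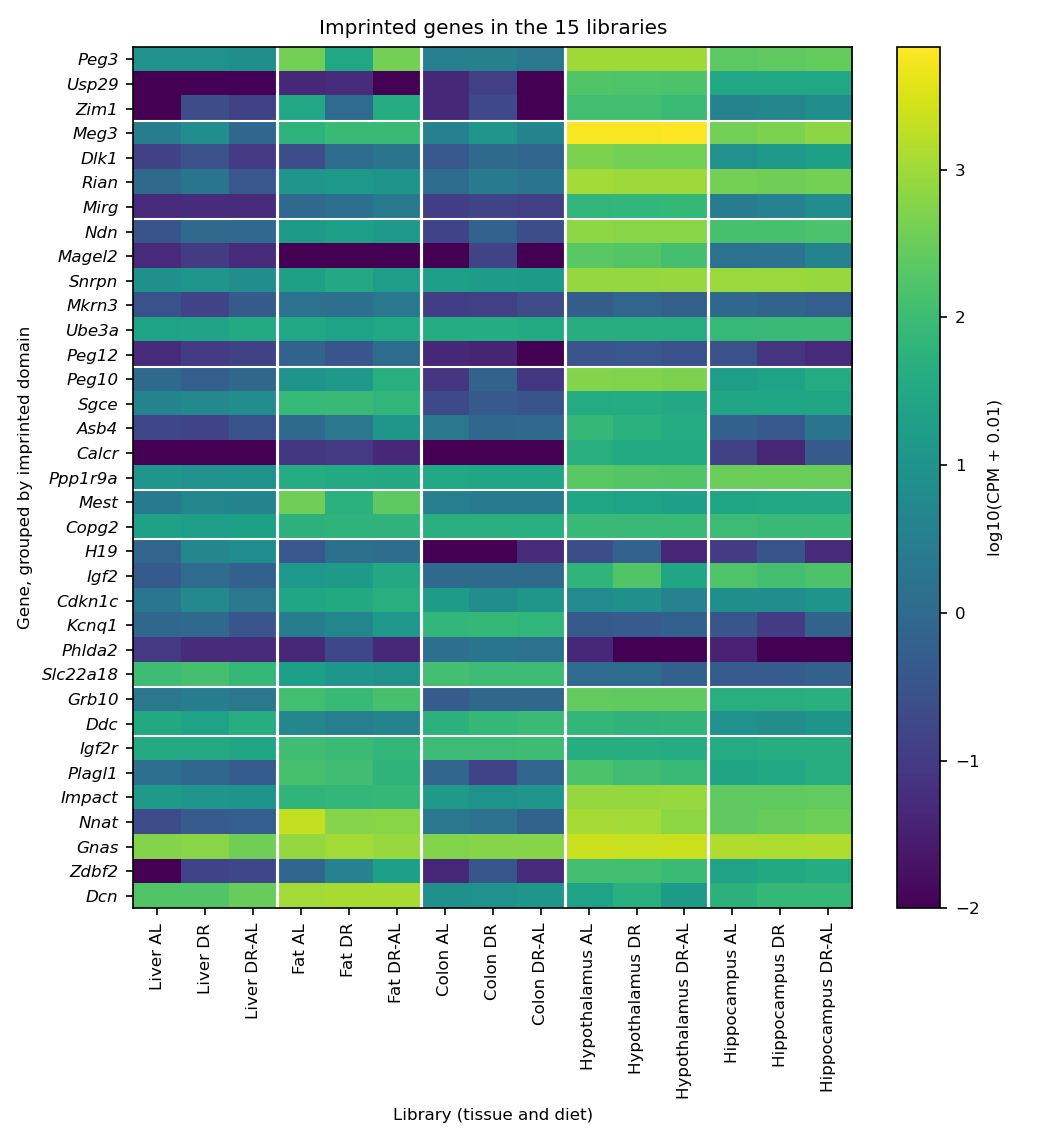
Level of the 35 imprinted genes in each of the 15 libraries, on a colour scale of log10(CPM + 0.01), with columns by tissue and diet and rows by imprinted domain. Hypothalamus holds the highest column of values for 17 genes, with Meg3 between 6036 and 6785 CPM.

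Meg3, a maternally expressed long noncoding RNA, was the most abundant member by counts, with 6079, 6036 and 6785 CPM in the hypothalamus libraries and 399, 473 and 674 CPM in the hippocampus libraries. It took 0.604 to 0.679% of all hypothalamus counts by itself. The other transcripts of its domain on chromosome 12 had the same tissue order at the top. Rian, which hosts small nucleolar RNAs, had a mean of 995 ± 48.6 (SD, n = 3) CPM in hypothalamus and 396 ± 20.6 (SD, n = 3) in hippocampus. Mirg, which hosts microRNAs, had 72.2 ± 4.51 (SD, n = 3) and 4.72 ± 2.26 (SD, n = 3). Dlk1, the paternally expressed coding gene of the domain and an inhibitor of adipocyte differentiation, had 426 ± 54.0 (SD, n = 3) CPM in hypothalamus and 14.6 ± 5.81 (SD, n = 3) in hippocampus, while its highest library outside the brain, DR-AL fat, had 1.75 CPM. SDs here and below are over the 3 diets of a tissue.

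The Peg3 domain was also highest in hypothalamus. Peg3, a zinc finger protein, had 1012, 987 and 989 CPM there, Usp29 178, 169.6 and 162 and Zim1 116, 118 and 96.3. The spread of Peg3 over the 3 hypothalamus libraries was small beside its spread in fat, where the mean was 276 ± 212 (SD, n = 3). On the Snrpn-Ube3a domain, Ndn had 687, 610.5 and 626 CPM in hypothalamus. Snrpn had 903, 885 and 869 CPM and Ube3a, silenced on the paternal allele in neurons, 79.6, 88.5 and 94.0 CPM in hippocampus, their highest tissue. Mkrn3, a ring finger gene tied to the onset of puberty, and Peg12 were near silent everywhere, with 39, 30 and 59 and 19, 8 and 32 counts in fat, their highest tissue.

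Of the Peg10 domain, Peg10 had 569, 527 and 477 CPM in hypothalamus and Ppp1r9a 336, 336 and 336 in hippocampus, while Sgce, next to Peg10 on the other strand, was highest in fat with 80.9, 86.5 and 68.3 CPM. Copg2 had 98.3, 90.5 and 86.3 CPM in hippocampus, overlapping its hypothalamus libraries with 88.9, 85.3 and 84.8 CPM. Grb10 had 276, 253 and 253 CPM in hypothalamus. Impact had 801, 801 and 862, Gnas 2256, 2141 and 2308 and Zdbf2 120.0, 117 and 96.0 CPM in the same tissue. The domain at the end of chromosome 7 was placed otherwise. Cdkn1c was highest in fat with 28.0, 34.0 and 48.1 CPM. Slc22a18 had 119.9, 101 and 102 CPM in colon and 106, 129 and 75.9 CPM in liver, which overlap, and Kcnq1 and Phlda2 were highest in colon.

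Per length, in the deposited FPKM, the hypothalamus order was Gnas with a mean of 723 FPKM, Nnat with 398, Meg3 with 304, Rian with 262, Snrpn with 233 and Ndn with 227. Gnas encodes the stimulatory G protein alpha subunit that couples hormone receptors to cyclic AMP, and Nnat is a small membrane protein of the endoplasmic reticulum. In fat the order was Nnat with 449, the matrix proteoglycan Dcn with 304, Gnas with 243 and Mest with 48.7 FPKM, and in colon Gnas with 417 and the organic cation transporter Slc22a18 with 105. The SD of the Nnat level in fat, 540.4 FPKM, was larger than its mean, so its place ahead of Dcn and Gnas does not hold beyond the spread of the libraries.

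The 2 brain regions were compared to ask which members set the hypothalamus apart. edgeR was fitted across all 15 libraries with tissue and diet as terms, and 34 members were tested. Peg12, with 112 counts in all libraries, was too low to enter. All 34 differed among the 5 tissues at an adjusted p under 0.05, as did 97.1% of all 17476 loci tested. In hypothalamus 15 of 34 members were higher than in hippocampus (44.1%, against 15.5% of all loci) and 4 were lower (against 15.3% of all loci). The median log2 fold change was 1.23 over the members and 0.03 over all loci. The lower count was 7 when the 6 brain libraries were fitted alone.

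The largest differences between the regions belonged to genes of feeding circuits and of the MAGE family. Calcr, a receptor of calcitonin and amylin signalling, had 44.7, 37.6 and 35.8 CPM in hypothalamus and 0.124, 0.032 and 0.437 CPM in hippocampus. It passed the filter on low loci only through hypothalamus, so its fold and p are not given and its call is no independent support. Magel2, a MAGE family protein with a role in hypothalamic neurons, had 219.7, 189.9 and 129 against 1.53, 1.70 and 4.01 CPM (6.04 ± 0.52, adjusted p = 8.46e-05). Asb4, a substrate receptor of a ubiquitin ligase found in arcuate neurons, had 76.5, 53.6 and 39.0 against 0.593, 0.384 and 1.79 CPM (6.04 ± 0.81, adjusted p = 0.000361). For these 3 genes every hippocampus library lay far below every hypothalamus library.

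Peg10, a gene derived from a retrotransposon, was higher in hypothalamus (log2 fold change 4.14 ± 0.57, adjusted p = 0.000423), and so was Zim1, a maternally expressed zinc finger gene beside Peg3 (4.22 ± 0.90, adjusted p = 0.00518). All 4 members of the Dlk1-Meg3 domain were higher, Dlk1 (4.75 ± 0.41, adjusted p = 2.99e-05), Mirg (3.79 ± 0.22, adjusted p = 4.68e-06), Meg3 (3.38 ± 0.56, adjusted p = 0.00126) and Rian (1.08 ± 0.33, adjusted p = 0.0314). Ddc, which makes dopamine and serotonin from their precursors, was higher (2.67 ± 0.25, adjusted p = 4.2e-05), as was Grb10, an adaptor that dampens insulin receptor signalling (2.25 ± 0.21, adjusted p = 4.87e-05). Usp29, Ndn, Plagl1 and Impact completed the 15, at 2.23 ± 0.24, 1.92 ± 0.34, 1.503 ± 0.40 and 1.41 ± 0.13. Usp29 is a deubiquitinase, Ndn a MAGE protein of postmitotic neurons, Plagl1 a zinc finger transcription factor and Impact a regulator of the response to amino acid starvation. The Rian and Plagl1 calls were each lost when single brain libraries were left out.

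Dcn (log2 fold change -1.58 ± 0.35, adjusted p = 0.00672), the ubiquitin ligase Ube3a (-1.26 ± 0.17, adjusted p = 0.000349), the actin-binding synaptic protein Ppp1r9a (-1.06 ± 0.12, adjusted p = 0.000138) and the coatomer subunit Copg2 (-0.33 ± 0.10, adjusted p = 0.0264) were the 4 lower members. With scaling by library totals the Copg2 value was -0.09 and not past the test, and the call was also lost without any 1 of 6 libraries. Peg3, at 1.72 ± 0.64, adjusted p = 0.0674, and Nnat, at 1.37 ± 0.49, adjusted p = 0.058, missed the threshold although every hypothalamus library was above every hippocampus library. For Nnat these were 1123, 1068 and 701 CPM against 251, 302 and 342 CPM. Igf2 (-1.15 ± 0.53, adjusted p = 0.127) also missed it, with 66.6, 177 and 27.8 CPM in hypothalamus overlapping 166, 132 and 158 CPM in hippocampus. Snrpn, a splicing protein of neurons, did not pass either, at 838 ± 22.5 (SD, n = 3) and 886 ± 17.2 (SD, n = 3) CPM.

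**Figure D2:**
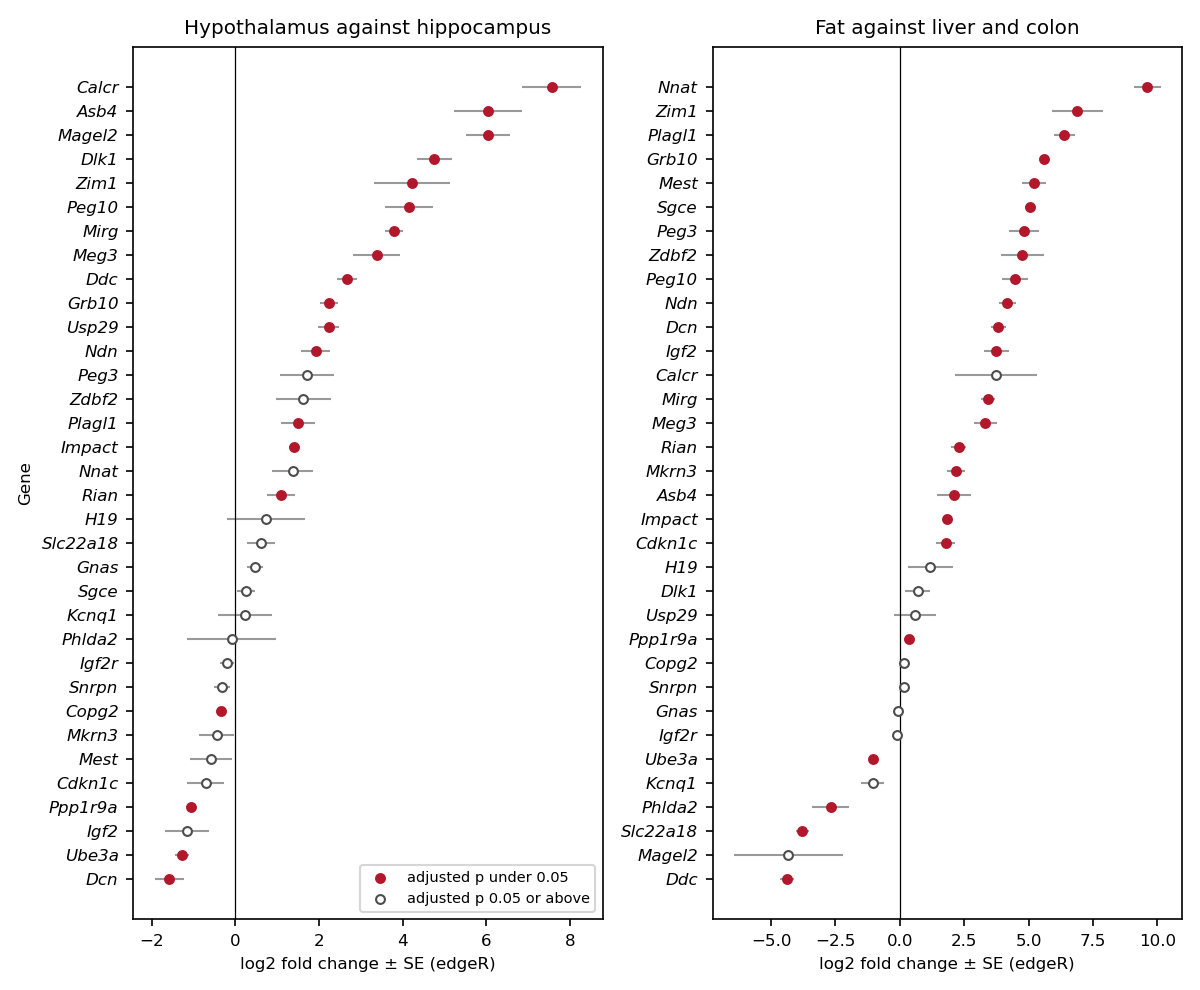
Log2 fold change with its standard error from edgeR for 34 imprinted genes, hypothalamus against hippocampus at left and fat against liver and colon at right, with red points for an adjusted p under 0.05. On the left 15 genes pass above 0 and 4 below it; on the right 20 pass above 0 and 4 below it.

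Between the 2 brain regions and the 3 peripheral tissues, 24 of 34 members were higher in brain (70.6%, against 41.8% of all loci) and 6 were lower (against 38.5% of all loci). The largest fitted difference was that of Usp29, with 162 to 178 CPM in hypothalamus and 29.2 to 32.1 CPM in hippocampus, while no peripheral library held more than 4 of its counts. Magel2 was listed at 0 in all 3 fat libraries and Calcr at 0 in all liver and colon libraries. Fitted folds of these 3 genes rest on zeros and are not given. Among members with reads in every tissue, Rian (7.38 ± 0.26, adjusted p = 5.15e-10), Ndn (7.04 ± 0.27, adjusted p = 8.06e-10), Dlk1 (6.90 ± 0.30, adjusted p = 2.33e-09) and Meg3 (6.86 ± 0.39, adjusted p = 2.27e-08) had the largest log2 differences. Impact (3.98 ± 0.09), Ppp1r9a (3.06 ± 0.08) and Snrpn (5.36 ± 0.14) had small standard errors for their size.

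The 6 members lower in brain were Slc22a18 (-6.73 ± 0.22, adjusted p = 2.81e-10), the potassium channel gene Kcnq1 (-4.49 ± 0.40, adjusted p = 1.01e-06), Phlda2, Dcn (-2.12 ± 0.24, adjusted p = 8.73e-06), the receptor that clears insulin-like growth factor 2, Igf2r (-1.18 ± 0.11, adjusted p = 1.38e-06), and the cell cycle inhibitor Cdkn1c (-1.08 ± 0.29, adjusted p = 0.00484). Phlda2 passed the filter on low loci only through colon, so its fold and p are not given. Without the fat libraries Cdkn1c was no longer past the test, at -0.53, and nor was Ube3a, at 0.08. The Cdkn1c call was also lost with library totals, at -0.61. Of the paternally expressed members, 13 of 15 tested were higher in brain and 0 lower. Of the maternally expressed members, 6 of 12 were higher and 5 lower, and 4 of the 5, Slc22a18, Kcnq1, Phlda2 and Cdkn1c, share a domain on distal chromosome 7.

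Fat held more imprinted transcripts than liver and colon. There 20 of 34 members were higher (58.8%, against 40.7% of all loci) and 4 lower (against 27.7% of all loci), with a median log2 fold change of 2.15 over the members and 0.26 over all loci. Nnat had 2023, 584 and 623 CPM in fat and at most 1.996 CPM in any liver or colon library (9.60 ± 0.52, adjusted p = 7.34e-08). Plagl1 (6.39 ± 0.40, adjusted p = 1.88e-07), Grb10 (5.58 ± 0.20, adjusted p = 5.12e-09), Mest, a hydrolase-like protein that marks expanding adipose tissue (5.20 ± 0.46, adjusted p = 2.85e-06), and Sgce, a sarcoglycan of muscle and nerve membranes (5.07 ± 0.21, adjusted p = 1.42e-08), followed. Zim1 was also higher, with 767, 25 and 1120 counts in fat and at most 6 in any liver or colon library. Its fold rests on libraries at or near 0 and is not given. Mest had 220.2 ± 156 (SD, n = 3) CPM in fat and 7.36-fold less in hippocampus, its next tissue. Dcn had 1056, 1161 and 1179.6 CPM in fat against 177, 173 and 302 CPM in liver. The 4 lower members were Ddc (-4.39 ± 0.26), Slc22a18 (-3.79 ± 0.25), Phlda2 and Ube3a (-1.05 ± 0.15). The Phlda2 call again rests on its colon counts alone, and no fold is given. With library totals the Ube3a value was -0.25 and not past the test. Without the DR-AL fat library the Asb4 call was lost.

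Between liver and colon, 11 members were higher in liver (against 32.5% of all loci) and 6 in colon (against 31.5%), so the members stood at or below the share of all loci. H19, a maternally expressed noncoding RNA of fetal tissues, had 20, 108 and 170 counts in the liver libraries and 0, 0 and 1 in colon. Sgce (4.90 ± 0.31, adjusted p = 1.58e-07), Dcn (5.20 ± 0.41, adjusted p = 8.96e-07) and Grb10 (2.33 ± 0.26, adjusted p = 1.51e-05) were higher in liver. Kcnq1 had 71.0, 75.1 and 67.6 CPM in colon and at most 0.965 CPM in liver (-5.88 ± 0.58, adjusted p = 4.86e-06). Phlda2, a brake on placental growth, had 36, 60 and 40 counts in colon and at most 2 in any liver library. The split of calls depended on scaling. Scaled by library totals, 4 members were higher in liver and 13 in colon, and the log2 values of Gnas and Slc22a18 turned from 0.57 and 0.64 to -0.15 and -0.08. Without the AL colon library 7 were higher in liver, and without the fat libraries 10 were lower.

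A diet effect shared by the 5 tissues was not found for any member. In the edgeR fit 0 of 34 passed for DR against AL (against 0.0114% of all loci) and 0 of 34 for DR-AL against AL (against 0.00572% of all loci). At an unadjusted p under 0.05 there were 2 and 3 members, and 657 and 862 of all loci. DESeq2 also called 0 members in both. The largest log2 fold changes for DR were H19 at 1.81 ± 0.74, Meg3 at 0.75 ± 0.41 and Zdbf2 at 0.64 ± 0.63. Whether the diet effect differed between the 2 brain regions and the 3 peripheral tissues was tested as an interaction, which 0 members passed for DR (against 0.0% of all loci; 2 members and 684 loci at an unadjusted p under 0.05) and 0 for DR-AL (against 0.126% of all loci; 2 members and 1097 loci). The nearest were H19, at -4.47 ± 1.01, adjusted p = 0.202, and Zdbf2, at -3.69 ± 0.96, adjusted p = 0.303, both for DR-AL and as brain minus periphery.

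Within a tissue each diet had 1 library. Following the study, a Z test of the 2 counts with Poisson error was used, with an adjusted p under 0.05 and the higher library at least 25% above the lower. It compares 2 libraries and says nothing of the spread between pools of mice, so no p-values are given and "passed" below means past this rule. Intervals are exact 95% intervals of the count ratio and cover counting error only. In such bulk RNA fewer cells of a type and less RNA per cell cannot be told apart.

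In fat, 18 of 34 members tested passed in the DR library (52.9%, against 45.6% of all loci), 10 higher and 8 lower, and 17 in the DR-AL library (against 57.9% of all loci), 11 higher and 6 lower. The shares were close to those of all loci, and all loci moved too: their median log2 fold change was 0.22 in DR and 0.34 in DR-AL with totals, and 0.03 and 0.005 with size factors. Of all loci that passed, 77.3% were higher in DR and 79.5% in DR-AL with totals, and 61.23% and 57.55% with size factors. With size factors the members split into 7 higher and 11 lower in DR and 9 higher and 12 lower in DR-AL. In FPKM, which the authors scaled so that the fat libraries lay 0.73 (DR) and 1.62 (DR-AL) log2 units lower relative to AL than the counts did, differences of this size split into 4 higher and 24 lower, and 5 higher and 24 lower.

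Peg3, Zim1, Mest and Nnat stood far beyond these shifts in the DR fat library. Peg3, a zinc finger protein of adipocyte and hypothalamic function, had 389, 31.0 and 407 CPM in AL, DR and DR-AL, a log2 fold change of -3.65 (95% interval -3.76 to -3.54) in DR and 0.06 (95% interval 0.02 to 0.10) in DR-AL. Its CPM in the DR library was 12.6-fold lower and in the DR-AL library back at that of AL. In FPKM, on the lower scale given above, it had 30.4, 1.48 and 10.3 and so stayed below AL in DR-AL. Relative to the median of all loci it stood at -0.28 in DR-AL. Zim1, the maternally expressed neighbour whose promoter is printed above, had 767, 25 and 1120 counts, -4.71 (95% interval -5.38 to -4.17) in DR, or 26.7-fold lower. Usp29, which starts beside Peg3, had 1, 1 and 0 counts, too few for a ratio. Mest had 364, 54.0 and 242 CPM, -2.75 (95% interval -2.84 to -2.67) in DR and -0.59 (95% interval -0.63 to -0.54) in DR-AL. Copg2, which overlaps the end of Mest on the other strand, had 55.4, 63.4 and 63.1 CPM and passed in neither library.

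Nnat had 2023, 584 and 623 CPM and was lower in both, at -1.79 (95% interval -1.82 to -1.76) and -1.70 (95% interval -1.72 to -1.67). The AL library held the high value of Nnat, while for Peg3 and Zim1 the DR library held the low one. Plagl1 was lower in DR-AL only, at -1.11 against -0.31 in DR, and Slc22a18 in both (-0.72 and -1.07). Igf2r (-0.60) and Ppp1r9a (-0.36) were also lower in DR-AL. Dcn and Sgce, also high in fat, passed in neither library, with 1056, 1161 and 1179.6 and 80.9, 86.5 and 68.3 CPM. Grb10 was lower in DR (-0.43), as were Ddc (-0.67) and Ube3a (-0.35), and had 0.23 in DR-AL.

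Several members with few counts in AL fat were higher in the DR-AL library, while others as low, such as Rian with 283, 289 and 291 counts and Ddc with 134, 73 and 113, did not pass there. Zdbf2, a zinc finger gene of the hypothalamus and pituitary, had 22, 87 and 535 counts (4.51, 95% interval 3.93 to 5.23 in DR-AL), Asb4 26, 47 and 333 (3.59, 95% interval 3.04 to 4.25), Peg10 276, 302 and 1243 (2.11, 95% interval 1.92 to 2.303) and Kcnq1 79, 111 and 353 (2.09, 95% interval 1.74 to 2.47). Igf2, a fetal growth factor, had 329, 345 and 892 counts (1.38, 95% interval 1.19 to 1.56) and H19, its partner in the domain, 10, 32 and 33. Dlk1 had 6, 26 and 48 counts and was higher in both. Mirg (1.255) and Cdkn1c (0.78) were higher in DR-AL. In FPKM the log2 value of Igf2 in DR-AL turned to -0.24, and those of Meg3, Zim1 and Cdkn1c to -1.09, -0.89 and -0.89. Among the members higher in DR, Meg3, Gnas, Peg10, Ndn, Kcnq1 and Snrpn had log2 values of 0.53, 0.39, 0.33, 0.38, 0.69 and 0.62, and all 6 turned negative in FPKM. Relative to the median of all loci, Meg3, Gnas, Peg10 and Ndn stood at 0.31, 0.17, 0.11 and 0.16, and Zim1 in DR-AL at 0.14.

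Other tissue in the fat libraries moved with these values. All 8 testis germ cell markers were higher in both libraries than in AL, 8 epididymis markers in DR and 6 in DR-AL, and all 7 liver markers tested were lower in both. Crisp1 made up most of the epididymis sum, with 846, 2802 and 4584 CPM, and was highest in DR-AL, as were Adam7 and Spink11. Lcn5, Lcn8, Rnase10, Defb20 and Cst11 were highest in DR, such as Lcn8 with 0.076, 43.9 and 0.183 CPM. Adipocyte markers summed to 41248, 34992 and 28102 CPM, mesenchyme markers to 1361, 1544 and 1026 and smooth muscle markers to 1475, 3877 and 1395. The part of these tissues in the members' values was not tested.

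**Figure D3:**
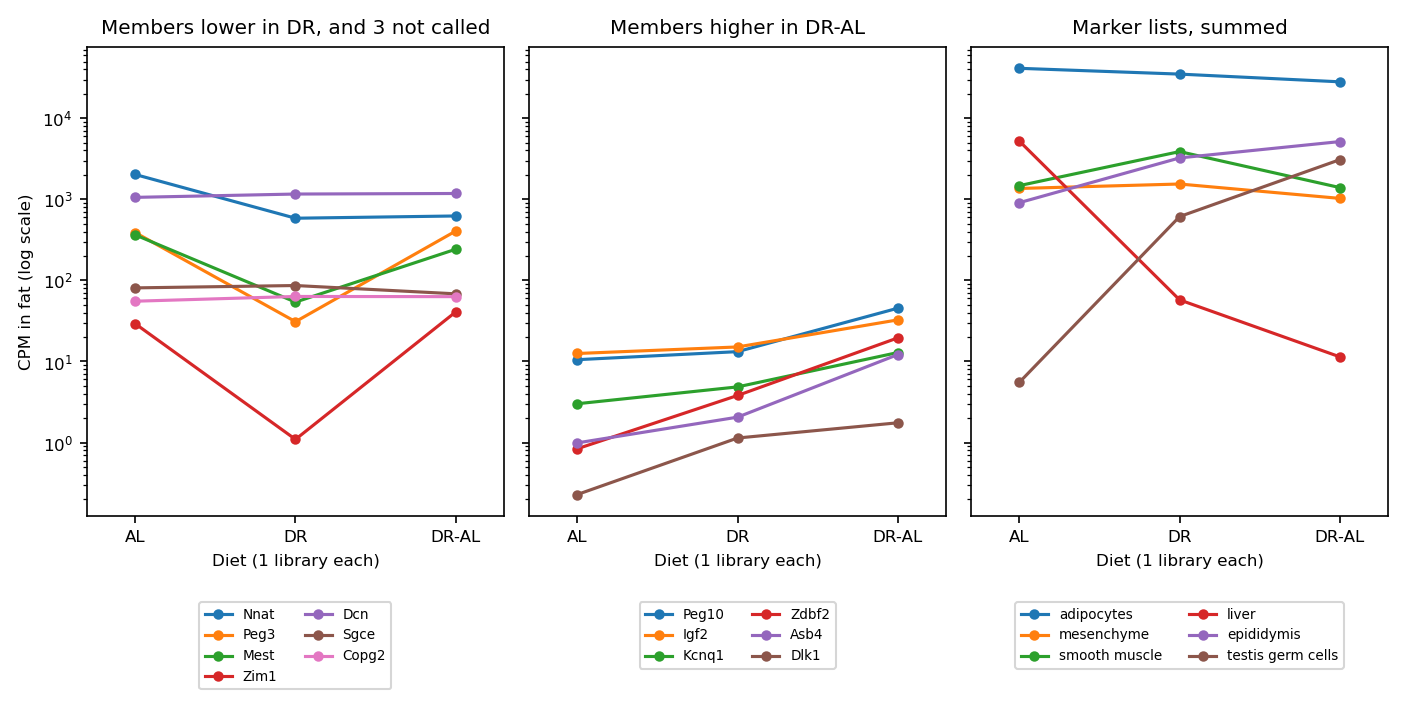
CPM on a log scale in the AL, DR and DR-AL fat libraries, with lines joining the 3 libraries of a gene or marker list. Peg3, Mest and Zim1 dip in the DR library while Dcn, Sgce and Copg2 stay level. The members of the middle panel (Peg10, Igf2, Kcnq1, Zdbf2, Asb4 and Dlk1) are highest in DR-AL. So are the sums of the testis list and of the epididymis list, the latter mostly Crisp1, while the liver list drops.

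In hypothalamus, 6 of 35 members passed in DR (17.1%, against 7.05% of all loci), 4 higher and 2 lower, and 10 in DR-AL (28.6%, against 15.1% of all loci), 0 higher and 10 lower. With size factors 8 passed in DR-AL, all lower. Of all loci that passed with totals, 61.4% were higher in DR and 40.2% in DR-AL. Igf2 had 66.6, 177 and 27.8 CPM, with log2 fold changes of 1.41 (95% interval 1.33 to 1.48) in DR and -1.26 (95% interval -1.38 to -1.15) in DR-AL. Dcn had 24.1, 44.3 and 14.7 CPM (0.87 and -0.72), Cdkn1c 6.61, 8.49 and 3.81 (0.36 and -0.79) and H19 7, 22 and 1 counts. These 4 genes were highest in the DR library and lowest in DR-AL, although the interval of H19 in DR-AL, on 7 against 1 counts, included 0. The pituitary markers went the same way in sum, at 19.2, 27.7 and 4.46 CPM, with 4 of 7 tested higher in DR and 5 lower in DR-AL. Among them Fshb (3.27 and 3.08 CPM in AL and DR) and Lhb (2.73 and 2.72) were not higher in DR. Prl (1.05 and 1.12 CPM in AL and DR-AL) was not lower in DR-AL. The 8 choroid plexus and meninges markers also went this way in sum, at 102, 161 and 53.1 CPM, 5 of 8 higher in DR and 7 of 8 lower in DR-AL. Kl, at 18.6, 15.4 and 9.71 CPM, and Clic6, at 46.3, 42.2 and 32.7 CPM, were not higher in DR. The part of these tissues in the members' values was not tested.

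The other 6 members lower in the DR-AL hypothalamus library include genes known from neurons that control feeding. Asb4 had 76.5, 53.6 and 39.0 CPM (-0.51, 95% interval -0.60 to -0.42 and -0.97, 95% interval -1.07 to -0.87) and Plagl1 154, 110.4 and 85.5 (-0.48, 95% interval -0.55 to -0.42 and -0.85, 95% interval -0.92 to -0.78), and both were lower in DR and in DR-AL. Magel2 (-0.77, 95% interval -0.82 to -0.71), Nnat (-0.68, 95% interval -0.71 to -0.66), Mest (-0.52, 95% interval -0.67 to -0.37) and Dlk1 (-0.34, 95% interval -0.38 to -0.31) were lower in DR-AL, and had -0.21, -0.07, -0.17 and -0.26 in DR. Other abundant members did not pass. Meg3 had -0.01 and 0.16, Peg3 -0.04 and -0.03, Snrpn 0.02 and 0.07, and Gnas -0.08 and 0.03.

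Marker genes of single kinds of hypothalamic neuron also differed between these libraries. Agrp, of arcuate neurons that drive feeding, had 440, 525 and 165 counts, Hcrt, of the lateral hypothalamus, 679, 1705 and 4346, and Avp, of vasopressin neurons, 13982, 8745 and 4920. They were picked from 8 hypothalamic neuron markers. Of the 8, 3 passed as higher and 2 as lower in DR, and 3 as higher and 3 as lower in DR-AL. Oxt was level, at 167, 160 and 160 CPM. The sum over the 8 was 1036, 918 and 866 CPM, and over 8 oligodendrocyte markers 3909, 4335 and 5859 CPM. The part of these differences in the values of Asb4, Magel2 and the other members was not tested.

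In hippocampus, 5 of 35 members passed in DR (14.3%, against 4.03% of all loci), 4 higher and 1 lower, and 11 in DR-AL (31.4%, against 6.15% of all loci), all 11 higher. In FPKM differences of this size split into 9 higher and 4 lower in DR and 18 higher and 3 lower in DR-AL. Of all loci that passed with totals, 33.8% were higher in DR and 64.8% in DR-AL. The 11 were Asb4, Magel2, Mirg, Dlk1, Peg10, Zim1, Meg3, Plagl1, Zdbf2, Nnat and Dcn. They include Dlk1, Meg3 and Mirg of the Dlk1-Meg3 domain and Peg10 and Asb4 of the Peg10 domain. Dlk1 had 9.14, 14.0 and 20.7 CPM (0.62, 95% interval 0.42 to 0.82 and 1.18, 95% interval 0.99 to 1.38), Peg10 18.4, 24.1 and 38.6 (0.39, 95% interval 0.25 to 0.54 and 1.07, 95% interval 0.93 to 1.21) and Meg3 399, 473 and 674 (0.25 and 0.76, 95% interval 0.73 to 0.79). Each was lowest in AL and highest in DR-AL. Zdbf2 (0.49 and 0.67) and Dcn (0.50 and 0.44) were also higher in both. Igf2 was the member lower in DR, with 166, 132 and 158 CPM (-0.33, 95% interval -0.39 to -0.27). The choroid plexus and meninges markers had 247, 184 and 263 CPM in sum, but they were split. Of the 8 markers, 4 passed as lower and 1 as higher in DR. Kl (96.5 and 69.2 CPM in AL and DR) and Clic6 (48.1 and 28.7) fell. Slc22a6 (5.58 and 7.14) and Slc6a13 (8.72 and 9.83) did not. The part of these tissues in the Igf2 value was not tested. Magel2 had 62, 53 and 101 counts (1.38, 95% interval 0.92 to 1.87 in DR-AL), Mirg 121, 122 and 183 (1.28, 95% interval 0.94 to 1.63) and Asb4 24, 12 and 45 (1.57, 95% interval 0.85 to 2.37).

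Rian, of the same transcribed strand as Meg3, passed in neither hippocampus library (-0.11 and 0.03), and nor did Snrpn (-0.03 and -0.06), Usp29 (-0.04 and 0.09) or Ppp1r9a, which had 336 CPM in each library. Hypothalamic neuron markers summed to 3.73, 3.20 and 5.96 CPM, or 0.397, 0.341 and 0.634% of their hypothalamus mean. Trh alone had 0.864, 0.224 and 3.26 CPM of these sums. Of the 8 markers, 1 passed as higher in DR-AL and 0 as lower. Several were near the floor, such as Agrp with 1, 2 and 5 counts and Hcrt with 3, 1 and 0. As a percent of its own hypothalamus mean, Dlk1 had 2.14, 3.29 and 4.86%, Meg3 6.33% in AL and 10.7% in DR-AL, Peg10 4.60% in DR and 7.36% in DR-AL, and Mirg 4.14, 5.41 and 10.1%. Nearer to the share of the markers were Magel2 with 0.852, 0.945 and 2.24%, Asb4 with 1.05, 0.682 and 3.17% and Calcr with 0.314, 0.081 and 1.11%. The part of neighbouring tissue in these values was not tested.

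**Figure D4:**
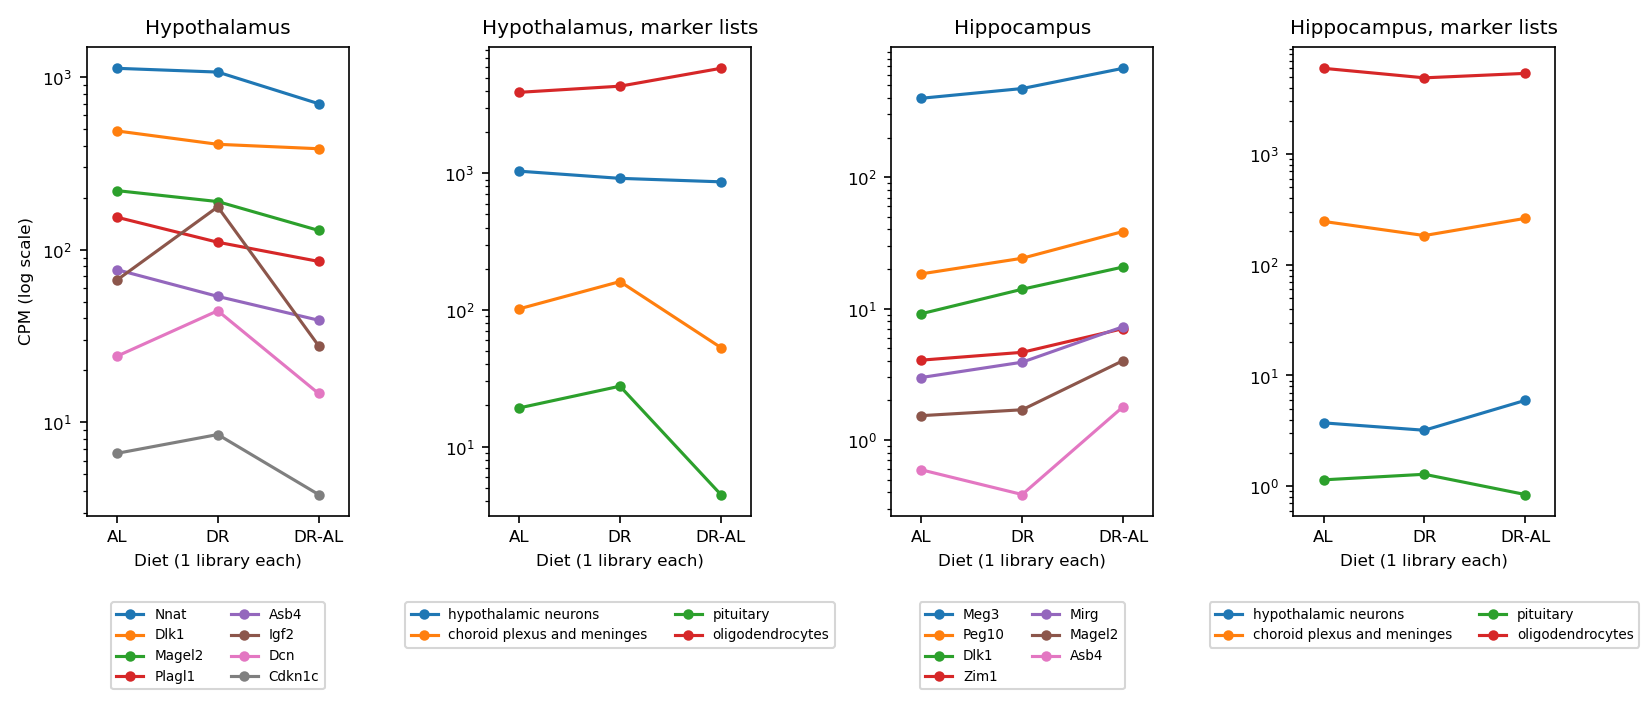
CPM on a log scale in the AL, DR and DR-AL libraries of hypothalamus (left panels) and hippocampus (right panels), for members that passed in a library pair and for summed marker lists, with lines joining the 3 libraries. In hypothalamus Igf2, Dcn and Cdkn1c peak in DR with the choroid plexus and meninges list; in hippocampus Meg3, Peg10, Dlk1 and Mirg are highest in DR-AL.

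In liver, 10 of 33 members passed in DR (30.3%, against 28.0% of all loci), 9 higher and 1 lower, and 16 in DR-AL (48.5%, against 30.9% of all loci), 8 higher and 8 lower. With size factors the DR split was 7 higher and 4 lower, and in FPKM 11 higher and 7 lower. Of all loci that passed with totals, 64.5% were higher in DR and 48.7% in DR-AL. H19 had 20, 108 and 170 counts and was higher in both, at 2.59 (95% interval 1.92 to 3.38) and 3.07 (95% interval 2.43 to 3.85), while Igf2, its paternally expressed neighbour, had 11, 23 and 16 counts. Meg3 had 73, 161 and 23 counts, higher in DR (1.32, 95% interval 0.92 to 1.74) and lower in DR-AL (-1.63, 95% interval -2.40 to -0.96), and Rian 25, 39 and 9 counts, lower in DR-AL (-1.41). Cdkn1c had 49, 123 and 51 counts and was higher in DR only (1.502, 95% interval 1.02 to 2.02). Mest had 63, 105 and 101 counts and Ndn 8, 22 and 24, both higher in DR and DR-AL.

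Dcn and Gnas, far more abundant in liver, had smaller ratios than H19. Dcn was higher in DR-AL, with 177, 173 and 302 CPM (0.77, 95% interval 0.72 to 0.83), and Gnas lower, with 559, 623 and 379 CPM (-0.56, 95% interval -0.60 to -0.52). Slc22a18 (-0.48), Igf2r (-0.39), Impact (-0.34), Plagl1 (-1.41) and Kcnq1 (-1.39) completed the 8 lower, and Sgce (0.78) and Ube3a (0.57) were higher. Ddc was the only member lower in DR, with 35.1, 23.1 and 43.4 CPM (-0.60, 95% interval -0.77 to -0.44). Snrpn (0.35) and Igf2 (1.21) were higher in DR. Zim1 (0, 5 and 3 counts) and Zdbf2 (0, 3 and 4) passed in both on at most 5 counts against 0, and no fold is given. In DR 5 smooth muscle and 4 neuron markers of 8 each were also higher, and in DR-AL 5 testis germ cell markers, and the part of these cells was not tested.

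In colon, 12 of 34 members passed in DR (35.3%, against 19.7% of all loci), 8 higher and 4 lower, and 8 in DR-AL (23.5%, against 14.3% of all loci), 2 higher and 6 lower. In FPKM the DR-AL split was 9 higher and 5 lower. Of all loci that passed with totals, 46.0% were higher in DR and 40.7% in DR-AL. The members higher in DR were mostly near silent in mucosa. Meg3 had 98, 372 and 107 counts (1.59, 95% interval 1.27 to 1.93), Rian 30, 84 and 44 (1.14, 95% interval 0.54 to 1.81), Dlk1 10, 34 and 20 (1.39, 95% interval 0.38 to 2.62), Peg10 2, 24 and 2 (2.98, 95% interval 1.24 to 6.38), Ndn 4, 23 and 6 (2.07, 95% interval 0.64 to 4.18), Zdbf2 1, 12 and 1 and Magel2 0, 5 and 0. In the DR library these 7 lay between 0.0833 and 0.324% of their hypothalamus mean, against 0 to 0.114% in AL and 0 to 0.187% in DR-AL. The hypothalamic neuron markers summed to 0.45, 0.81 and 0.28 CPM and the general neuron markers to 10.8, 10.9 and 6.07 CPM in the same libraries. Of the 8 hypothalamic genes, 4, 0 and 6 were at 0 in the 3 libraries, and 2 passed as higher in DR. Adipocyte markers, 59.6, 30.8 and 53.4 CPM in sum, were lower in DR for 7 of 8 genes, and mesenchyme markers, 23.6, 35.7 and 20.9 CPM, higher for 5 of 8. Their part in the members' values was not tested.

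Members with higher colon levels gave a different set. Ddc, which in the gut makes serotonin and dopamine, was higher in DR and DR-AL, with 55.7, 75.5 and 92.3 CPM (0.44, 95% interval 0.35 to 0.53 and 0.73, 95% interval 0.63 to 0.82). Cdkn1c was lower in both, with 16.2, 7.18 and 11.9 CPM (-1.17, 95% interval -1.40 to -0.94 and -0.44, 95% interval -0.66 to -0.22), and so was Asb4, with 56, 29 and 24 counts. Impact was lower in both (-0.42 and -0.32) and Plagl1 in DR, with 21, 5 and 20 counts. In DR-AL Snrpn (-0.42), Nnat (-1.45) and Peg3 (-0.70) were lower and Dcn higher (0.49). Kcnq1 and Igf2r, whose highest tissue is colon, passed in neither library: Kcnq1 had 71.0, 75.1 and 67.6 CPM and Igf2r 101, 99.5 and 105 CPM. Smooth muscle markers were lower in DR-AL for 6 of 8 genes and higher in DR for 3, and their part was not tested.

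Over the 10 library pairs, Zdbf2 and Asb4 passed in 7 pairs each, Zdbf2 higher in all 7, 3 of them in liver and colon on at most 12 counts, and Asb4 higher in 3 and lower in 4. Usp29, Copg2, Phlda2, Mkrn3, Peg12 and Calcr passed in 0. Copg2 had 393 to 3981 counts in every library, whereas Phlda2, Mkrn3 and Peg12 held 148, 292 and 112 counts over all 15 libraries. The AL library of a tissue is shared by its DR and DR-AL comparisons, so a high or low AL library moves both. Peg3, Mest and Nnat in fat, Igf2 in hypothalamus, Dlk1 in hippocampus and H19 in liver therefore differ in which library stands out: DR for Peg3 and Mest, AL for Nnat and H19, and none alone for Igf2 and Dlk1.

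**Figure D5:**
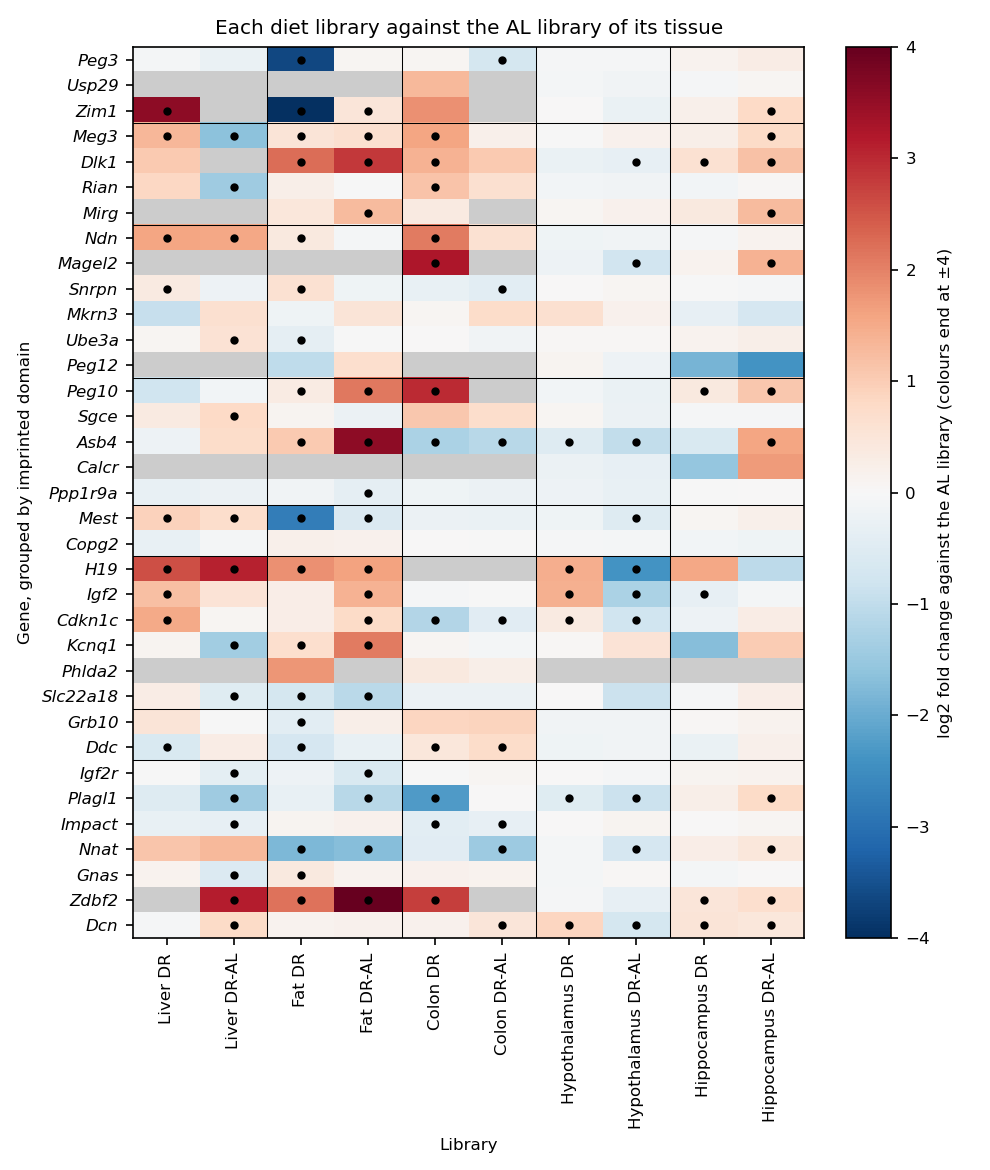
Log2 fold change of the DR and DR-AL libraries against the AL library of each tissue for the 35 imprinted genes, with dots for pairs past the Z test with the higher library at least 25% above the lower, and grey where neither library held more than 3 counts. Fat DR holds the darkest blue cells (Zim1, Peg3, Mest), fat DR-AL the darkest red (Zdbf2), and hippocampus DR-AL has 11 dots, all on red cells.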

How the data were processed

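RNA-Seq counts of 15 libraries were analysed. Per the labels and the study's methods, the authors pooled RNA of 5 mice per tissue and diet, depleted ribosomal RNA, sequenced stranded paired-end libraries, and trimmed, aligned and analysed the reads with the Strand software, discarding those of low quality and duplicates. How reads were assigned to loci is not given in the sources used here. The deposited table holds these raw counts and, beside them, FPKM values that the authors normalised (counts per length and depth). The study's methods name mm10 and the submitters' processing notes mm9 and DESeq2, and the deposited positions matched GENCODE GRCm38 on the chromosome for all 35 members but overlapped for 7, so positions come from GENCODE.

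CPM were taken over the 23589 named of 33603 loci, and unnamed loci held 0.258 to 1.39% of counts. Tissues and diets were compared with edgeR 4.0.16 in R 4.3.3: TMM scaling, removal of low loci, quasi-likelihood tests with tissue and diet as terms (8 residual degrees of freedom, 6 with the interaction), and Benjamini-Hochberg adjustment over 17476 loci, with an adjusted p under 0.05 as threshold. Errors of log2 fold changes are standard errors of this fit. The 3 libraries of a tissue differ in diet, and no tissue and diet has a second library. The p-values therefore rest on how far libraries depart from the tissue and diet terms. They do not measure the spread between replicate pools of mice. Library pairs were compared as in the study, by a Z test of square-root counts with adjusted p under 0.05 and the higher library at least 25% above the lower. Their log2 fold changes used depth-scaled counts plus 0.5, and ratios to counts of 0 were not formed below 3 counts. Intervals and floors cover counting error only. The scripts were tested on simulated data. Alternatives were DESeq2 1.42.0, other scalings and filters, an edgeR exact test with an assumed coefficient of variation of 0.1, FPKM folds, and leaving out libraries.

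The members and gene lists were chosen with earlier results of these data known. All 35 members were named; of the lists of other imprinted genes and of imprint maintenance genes, at most the 4 largest changes past a test were named. A member on several rows was represented by the row with most counts. Marker genes were named where their level moved with a member. Feeding neuron genes beside the hypothalamus results were picked after their values were seen. Sequences are RefSeq's (GRCm38.p6). The sequence of a member on chromosome 18 is not reported here.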

Additional observations from a re-analysis of the deposited data

How the results depend on the processing

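Over all tissue contrasts, single-gene calls kept their direction and side of the threshold in 90 of 90 cases with DESeq2, with size factors and without the filter on low loci, and in 80 with library totals, where 8 calls were lost and 2 reversed. The number of members lower in hypothalamus than in hippocampus was 7 with the 6 brain libraries alone (4 otherwise). Between liver and colon, 4 members were higher and 13 lower in liver with library totals, and 10 were lower without the fat libraries. With totals the log2 values of Gnas and Slc22a18 were -0.15 and -0.079. Leaving out each library in turn gave 34 to 35 members that differed among tissues, 13 to 18 higher and 3 to 5 lower in hypothalamus, 24 to 25 higher and 6 to 7 lower in brain, 7 to 12 higher and 5 to 8 lower in liver against colon, 19 to 22 higher and 4 to 5 lower in fat, and 0 for the diets. The single-gene calls lost most often were Cdkn1c and Peg10 between liver and colon, in 7 of 15 omissions.

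For library pairs, an assumed coefficient of variation of 0.1 between pools left 4 members changed in liver for each diet, 11 in fat DR, 6 and 2 in colon DR and DR-AL, 2 and 6 in hypothalamus, and 0 and 4 in hippocampus. The assumed 0.1 lies below the common coefficient of variation of 0.301 that edgeR estimated from departures from the fitted terms. No count is given for a spread of that size. By FPKM folds with a pseudocount of 0.1, 18 members changed in liver DR and 28 and 29 in fat DR and DR-AL. In colon DR-AL 14 members changed, and in hippocampus DR and DR-AL 13 and 21. Shares of all loci under these settings are not given, so the counts cannot be set against them. With pseudocounts of 0.1 and 1, log2 values of fat DR reversed for Meg3 (-0.46 and -0.40), Gnas (-0.41 and -0.41), Peg10 (-0.33 and -0.20), Ndn (-0.39 and -0.34), Kcnq1 (-0.18 and -0.086) and Snrpn (-0.11 and -0.10), and of fat DR-AL for Meg3 (-1.09 and -0.93), Zim1 (-0.89 and -0.72), Igf2 (-0.24 and -0.17) and Cdkn1c (-0.89 and -0.80). These reversals go with the lower scale of the FPKM in fat after DR and DR-AL. The 1 library per tissue and diet limits every diet comparison, and at low counts, such as those of Phlda2, Mkrn3 and Peg12, a difference was not detectable at this depth.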

Other observations

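A further list of 39 imprinted genes outside the 35, of which 36 were tested, was compared in the same fits. By edgeR 13 were higher and 2 lower in hypothalamus than in hippocampus (15.5% and 15.3% of all loci), led by Th, which makes dopamine (log2 fold change 5.57), the retrotransposon-derived Rtl1 of the Dlk1-Meg3 domain (4.77) and Cpa4 (3.83), with Dio3, which inactivates thyroid hormone, at -3.41. In brain 25 were higher than in the periphery and 8 lower (41.8% and 38.5% of all loci). Klf14 (9.42), Slc22a2 (6.95), Dlx5 (4.94) and Slc22a3 (4.37) led the 19 that were higher in fat than in liver and colon, where 5 were lower (40.7% and 27.7% of all loci). Slc38a4, an amino acid transporter, had a log2 fold change of 12.48 in liver against colon, and Ascl2, a factor of intestinal stem cells, of -10.32. The counts of these genes in the lower tissues are not given here. Folds as large as those of Klf14, Slc22a2, Slc38a4 and Ascl2 may rest on libraries with few or no reads. They give a direction only, and their calls are no independent support. No gene of the list passed for either diet over the tissues. In the fat libraries Slc38a4 had 9050, 410 and 1011 counts in AL, DR and DR-AL, log2 fold changes of -4.26 and -3.22. It was low in both, where Peg3 by counts was low in DR alone. Slc38a4 is also a liver gene, the liver markers were lower in the same 2 libraries, and their part was not tested.

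Of 12 genes that set or protect imprints, 3 were higher and 3 lower in hypothalamus than in hippocampus (15.5% and 15.3% of all loci). Zfp57, which protects methylated imprints, was higher by 3.07 (adjusted p = 0.000999, edgeR), and Dnmt3a by 0.79, while Smchd1 (-0.62) and Ctcf (-0.49) were lower. Zfp57 was also higher in brain than in the periphery (3.24) and in fat than in liver and colon (4.06). In the library pairs of the brain regions 0 of the 12 passed, where 4.03 to 15.1% of all loci did. In fat Uhrf1, which maintains methylation in dividing cells, had 68, 160 and 557 counts, beside the rise of testis germ cell markers in the same libraries, and their part was not tested.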
